A study of Drosophila melanogaster with 6 samples.

Results

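The insulin and TOR signalling genes of Drosophila were described in S2* cells given the moulting hormone 20-hydroxyecdysone (20E). The members were ImpL2, Sesn, InR, chico, Akt, foxo, Thor, S6k and Tor, 9 genes in all, and every probe set annotated to exactly 1 of them was taken. Of these genes, 8 had a probe set, 1 each, out of 11982 genes named on the arrays. Thor was not analysed here, and Tor is the gene that the annotation calls mTor. S2* cells are a line related to the macrophage-like S2 cells of fly embryos. The treated group was 3 samples of S2* cells given 20E at 1 µM for 24 h, and the control group was 3 samples of S2* cells left untreated. For the untreated samples the labels give neither a solvent nor a time, so any effect of a solvent or of culture time cannot be told apart from that of the hormone. Total RNA of each sample was hybridised to 1 Affymetrix Drosophila 2.0 array, a single-label array. The deposited values cover 18769 probe sets.

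As background, insulin-like peptides bind the receptor InR, which signals through the adaptor Chico and the lipids made by PI3 kinase to the kinases Pdk1 and Akt. Akt keeps the transcription factor FOXO out of the nucleus and relieves the brake that the Tsc complex puts on Rheb and TOR. TOR, which also reads amino acids through the Rag GTPases, promotes growth by way of the kinase S6K and the translation inhibitor 4E-BP, the product of Thor. In flies, 20E is known to oppose insulin-driven growth at the end of larval life.

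Arrays were compared after quantile normalization, and the levels given are normalized linear intensities in arbitrary units, comparable between arrays for the same probe set but not between probe sets. Whether replicates came from different cultures is not in the labels, and the p-values then cover only the spread among these 6 samples, technical spread included. Arrays held between 18313 and 18760 values, with medians between 43.2 and 56.4 deposited units. Across probe sets, untreated replicate 1 correlated with untreated replicates 2 and 3 at r = 0.881 and 0.918, where those correlated at 0.955 with each other. With 20E replicate 1 it correlated at 0.887. The array of 20E replicate 2 stood further apart. It had 456 empty cells and 968 values below 0, against 9 to 146 and 373 to 617 on the other 5 arrays, and across probe sets it correlated with the other 20E arrays at r = 0.868 and 0.877, where those correlated at 0.952 with each other. The members' differences are therefore given with and without it. For the 36 other pathway genes the second value is given for some only, and the genes whose sign turned are named. A value printed alone can also have moved. Of 6 hormone response genes checked, Eip78C, vri and Hsp27 rose, and EcR and usp did not pass the test. For br, 2 of 5 probe sets rose (by 3.44 and 2.35 on the log2 scale used below; limma, adjusted p = 0.00174 and 0.0437), while the one with the highest mean log2 value did not pass. Hsp27, a small heat shock protein gene, had 2496, 2879 and 2923 units in 20E cells, against 44.9, 39.4 and 28.8 units in untreated cells. Of 10 haemocyte markers measured, 4 rose and 1 fell, and the sum of their unlike levels ran from 6569 to 9692 units in 20E cells and from 7066 to 8750 units in untreated cells. Within that sum, srp, crq, Col4a1 and vkg averaged 1576, 1157, 2740 and 2641 units in 20E cells, against 309, 160, 1184 and 909 units in untreated cells, while Nplp2 averaged 101 units in 20E cells, against 5167 units in untreated cells. The haemocyte genes NimC1 and He lay at 10.8 to 26.8 and 5.24 to 23.0 units in 20E cells and at 16.1 to 37.0 and 0.925 to 21.3 units in untreated cells, all below the 40th percentile of mean intensity over all probe sets. Of 3 fat body markers measured, Fbp2 alone passed, at 461 to 745 units in 20E cells, against 14.6 to 42.3 units in untreated cells. Fbp1 averaged 16.6 units in 20E cells and 42.3 units in untreated cells without passing (limma, adjusted p = 0.135), and Lsp2 averaged 127 units in 20E cells and 108 units in untreated cells. Of 5 lamellocyte and crystal cell markers measured, PPO3 alone passed (limma, adjusted p = 0.00978). It averaged 131 units in 20E cells, against 26.45 units in untreated cells, while 3 of the 5 had a negative difference. The part of such shifts in the results below was not tested. In bulk RNA, fewer cells of a kind and less transcript per cell cannot be told apart.

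At issue was how these transcripts stood in 20E cells after the treatment, set against untreated cells. ImpL2, which encodes a secreted protein that binds insulin-like peptides and dampens insulin signalling, and Sesn, which encodes the sestrin that restrains TOR, rose in 20E cells. The gene of the TOR target kinase, S6k, was lower on every 20E array than on every untreated array but missed the threshold. The transcripts of InR, chico, Akt, foxo and Tor did not pass the test. By limma, with p-values Benjamini-Hochberg adjusted across the whole array, 2 of the 8 member probe sets had an adjusted p under 0.05, both higher in 20E cells, where 5.1% of all 18767 probe sets tested were called, 3.02% higher and 2.08% lower. Over the whole array the calls were 567 higher and 390 lower, and 723 higher and 307 lower without normalization between arrays. All 8 members had a mean intensity over both groups above the 40th percentile of all probe sets, which was 39.1 units. Within a group, foxo in untreated cells (36.76 units) and chico in 20E cells (36.84 units) averaged less than that. The median log2 difference of the 8 members, 20E minus untreated, was 0.38, beside −0.02 over all probe sets, with 6 members above 0 and 2 below. The members were chosen with earlier results of these data known, so these counts and this median are no test of the pathway.

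**Figure D1:**
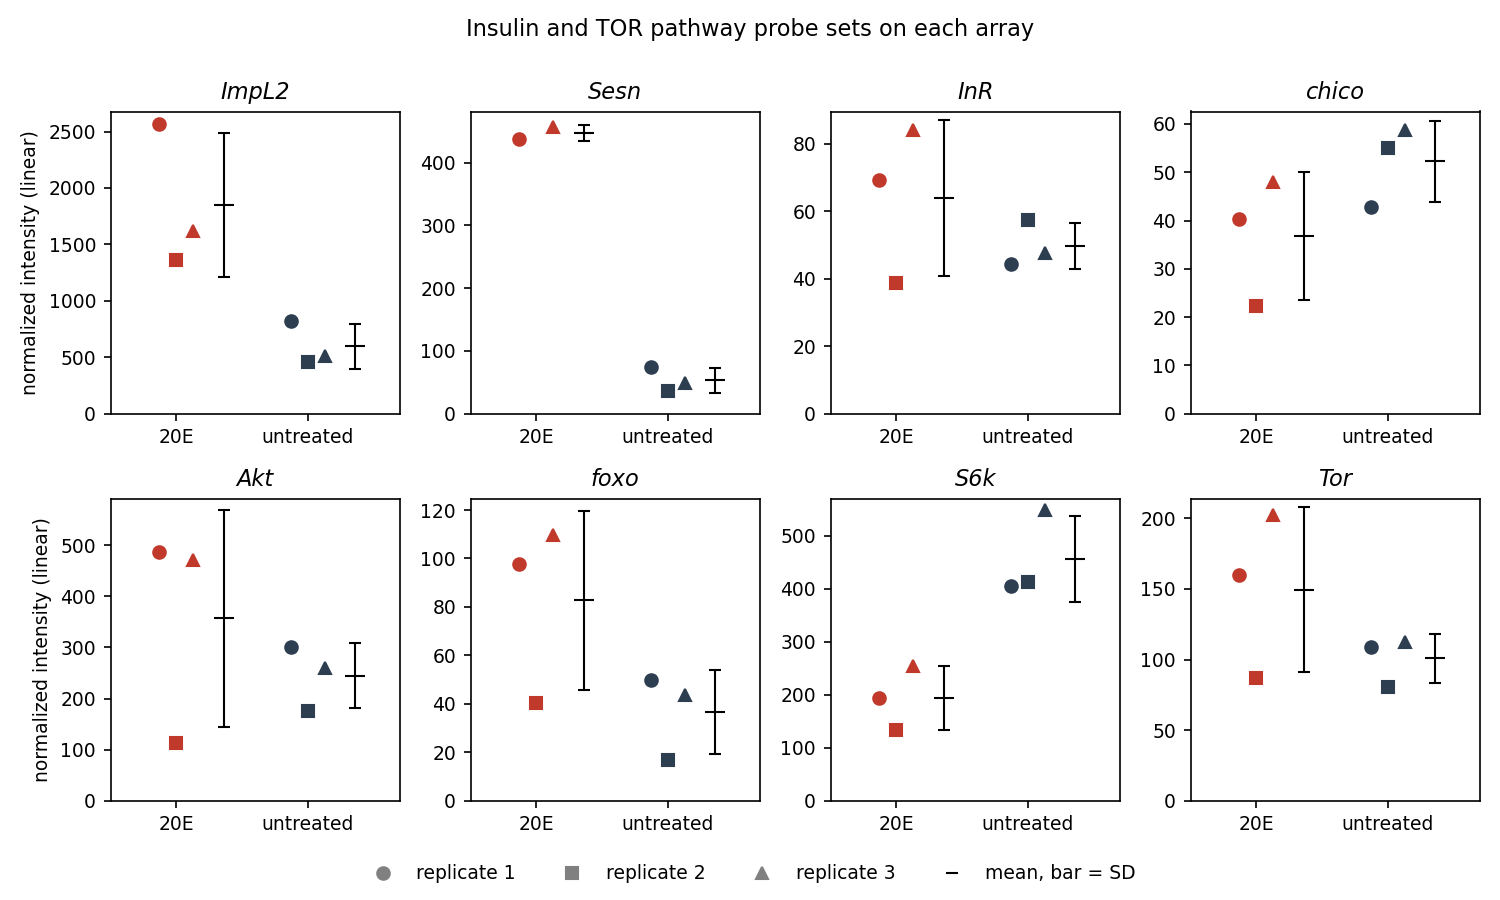
Normalized intensity (linear axis from 0, arbitrary units) of each of the 8 member probe sets on every array, with 20E cells on the left and untreated cells on the right of each panel, symbols for replicate numbers, and the group mean ± SD beside the points. The groups separate for ImpL2, Sesn and S6k, and the square of 20E replicate 2 is the lowest 20E value wherever it is present.

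The insulin-binding protein gene ImpL2 was at 2569, 1360 and 1617 units in 20E cells (replicates 1 to 3), against 822, 456 and 509 units in untreated cells. Every 20E array lay above every untreated array, and the lowest 20E value was well over the highest untreated one. The means were 1849 ± 637 units in 20E cells and 596 ± 198 units in untreated cells (SD, n = 3 each). On the log2(normalized intensity + 16) scale, which is used for all differences below, ImpL2 was higher by 1.60 ± 0.33 (SE; 95% interval 0.82 to 2.39; limma, adjusted p = 0.0426), or 3.04-fold. The call was close to the threshold and depended on single arrays. It held without 20E replicate 2 (1.79, limma, adjusted p = 0.0474) and without untreated replicate 1 (0.044), and was lost without 20E replicate 1 (0.129), 20E replicate 3 (0.127), untreated replicate 2 (0.162) or untreated replicate 3 (0.187), while the difference stayed between 1.34 and 1.85. The probe set of ImpL2 carries the suffix _s_at, which marks probes that can match several transcripts.

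Of the insulin-like peptide genes themselves and their other partners, 6 of 10 listed were measured, and 0 passed the test (limma; 0 also at an unadjusted p under 0.05). Their median difference was −0.18, beside −0.02 over all named genes. Ilp8, a relaxin-like peptide gene of injured or growing discs, was at 53.4, 56.1 and 80.2 units in 20E cells, against 109, 68.0 and 77.6 units in untreated cells. Ilp2, expressed by the insulin-producing neurons of the brain, lay between 6.30 and 13.5 units in 20E cells and between 5.70 and 26.1 units in untreated cells. Ilp5 had the largest negative difference of the group, at −0.73 ± 0.87, on values of 36.2, 40.3 and 6.90 units in 20E cells and −29.0, 137 and 109 units in untreated cells, and Ilp7 the only positive one, at 0.44 ± 0.47 (SE). The positive value of Ilp7 rested on 20E replicate 2, at 89.1 units beside 17.6 and 27.0 units on the other 20E arrays, and was −0.05 without it. Sdr, which encodes a secreted decoy of the insulin receptor, was below 0 on all 6 arrays, so it has no fold.

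The receptor gene InR was at 69.3, 38.6 and 83.9 units in 20E cells, against 44.4, 57.4 and 47.5 units in untreated cells. The 20E values of replicates 1 and 3 lay above all untreated values and that of replicate 2 below them. InR differed by 0.24 ± 0.27 (SE; 95% interval −0.40 to 0.88; limma, adjusted p = 0.736), and by 0.49 (0.215) without 20E replicate 2. The adaptor gene chico, which encodes the fly insulin receptor substrate, had 40.4, 22.2 and 47.9 units in 20E cells, against 42.7, 55.1 and 58.9 units in untreated cells. Its groups overlapped, and it differed by −0.39 ± 0.25 (SE; −0.997 to 0.21; limma, adjusted p = 0.512), or −0.18 (0.649) without 20E replicate 2. At these dim levels the added 16 units compress the log2 scale, so a 2-fold change in intensity of either gene was not excluded in the direction of its difference.

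Akt, the central kinase of the pathway, was at 486, 113 and 472 units in 20E cells, against 299.9, 175 and 259 units in untreated cells. The values of 20E replicates 1 and 3 stood above the untreated range and that of 20E replicate 2 below it, so the 20E mean of 357 ± 212 units carried a large SD beside the untreated mean of 245 ± 63.5 units (n = 3 each). The difference of 0.31 ± 0.55 (SE; 95% interval −0.99 to 1.61; limma, adjusted p = 0.852) became 0.96 (0.107) without 20E replicate 2, and −0.027 and −0.006 without 20E replicate 1 and 3. The transcription factor gene foxo was at 97.9, 40.5 and 110 units in 20E cells, against 49.7, 17.0 and 43.6 units in untreated cells. Again 20E replicates 1 and 3 were above, and replicate 2 within, the untreated range. It differed by 0.88 ± 0.40 (SE; −0.07 to 1.84; limma, adjusted p = 0.334), and by 1.24 (0.108) without 20E replicate 2.

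Of the other genes between the receptor and FOXO, 2 of 9 listed were measured and neither passed (limma; 1 at an unadjusted p under 0.05). Pdk1, the kinase that activates Akt, was at 223, 127 and 291 units in 20E cells, against 101, 76.1 and 100.1 units in untreated cells. Its groups did not overlap, and its difference of 1.02 ± 0.31 (SE; limma, adjusted p = 0.138) was 1.33 without 20E replicate 2, where it passed (0.0307). The groups of melt, which encodes the adaptor protein Melted that binds FOXO and the Tsc complex, did not overlap either, with 31.1, 46.4 and 32.0 units in 20E cells and 26.5, 22.9 and 1.85 units in untreated cells (limma, adjusted p = 0.364).

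**Figure D2:**
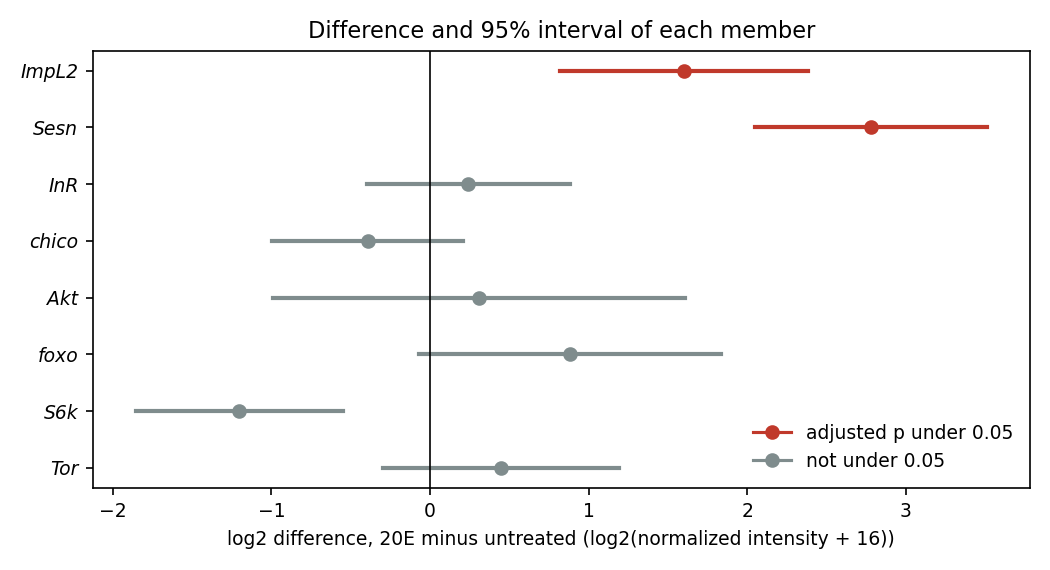
Log2 difference, 20E minus untreated, of each member on the log2(normalized intensity + 16) scale (points) with its pointwise 95% interval from limma (lines), in red where the adjusted p is under 0.05. ImpL2 (1.60) and Sesn (2.78) are called higher, S6k (−1.20) lies wholly below 0 without passing after adjustment, and the intervals of the other 5 members cross 0.

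Sesn encodes the fly sestrin, a stress-inducible protein that activates AMPK and the GATOR1 complex and so restrains TOR. It had 438 and 456 units in 20E replicates 1 and 3, with an empty cell on 20E replicate 2, against 74.4, 35.9 and 49.0 units in untreated cells. The 20E values at hand were close to each other and far above the untreated range. The means were 447 ± 12.8 units in 20E cells (SD, n = 2) and 53.1 ± 19.6 units in untreated cells (SD, n = 3). Sesn was higher by 2.78 ± 0.30 (SE; 95% interval 2.05 to 3.51; limma, adjusted p = 0.00636), the largest difference among the members in size. That difference is 6.88-fold on the log2 scale with its added units, which compress the fold at the low untreated level. The ratio of the mean intensities, 20E over untreated, was 8.42. The fit left out 20E replicate 2, on which Sesn has no value. The call was lost without 20E replicate 1 (0.0553) or replicate 3 (0.0579), where 1 treated value remained and was assumed to vary like the untreated ones, and without untreated replicate 3 (0.0506). The difference lay between 2.60 and 3.00 when 1 array was left out.

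Among the other regulators upstream of TOR, 6 of 9 listed were measured and 0 passed (limma; 1 at an unadjusted p under 0.05), with a median difference of 0.08. The AMPK subunit gene SNF4Agamma was at 206 and 272 units in 20E replicates 1 and 3, with an empty cell on replicate 2, against 124, 129 and 103 units in untreated cells. Both 20E values were above the untreated range (difference 0.92 ± 0.24, SE; limma, adjusted p = 0.111). The catalytic subunit gene AMPKalpha differed by −0.14 ± 0.35 (0.22 without 20E replicate 2) and scyl, a TOR inhibitor gene of the REDD family, by 0.57 ± 0.44 (SE). The Tsc complex genes Tsc1 and gig differed by 0.02 ± 0.49 and −0.01 ± 0.20 (SE), and without 20E replicate 2 by 0.51 and −0.04. 

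The kinase gene Tor was at 160, 87.1 and 202 units in 20E cells, against 109, 80.8 and 113 units in untreated cells. As with foxo, 20E replicates 1 and 3 were above all untreated values, while 20E replicate 2 was within their range. Tor differed by 0.45 ± 0.31 (SE; 95% interval −0.30 to 1.19; limma, adjusted p = 0.554), and by 0.76 (0.124) without 20E replicate 2. Its partner genes showed no call in 4 measured of 5 listed (limma; 1 at an unadjusted p under 0.05). Lst8, a subunit of both TOR complexes, was lower on all 20E arrays, at 159, 99.9 and 166 units, against 275, 212 and 186 units in untreated cells (−0.62 ± 0.26, SE; limma, adjusted p = 0.287; −0.41 without 20E replicate 2). The difference of raptor, which defines the growth-promoting complex, was −0.02 ± 0.21 (0.02 without 20E replicate 2), and that of rictor, which defines the other complex, was 0.38 ± 0.35 (SE; n = 2 and 3).

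S6k, the kinase that TOR activates to promote growth, was at 193, 133 and 254 units in 20E cells, against 405, 412 and 549 units in untreated cells. All 20E values were below all untreated values, and the groups did not overlap. The means were 193 ± 60.6 units in 20E cells and 456 ± 81.4 units in untreated cells (SD, n = 3 each). The difference of −1.20 ± 0.28 (SE; 95% interval −1.86 to −0.55) had an unadjusted p of 0.00346 and missed the threshold after adjustment (limma, adjusted p = 0.0609), and it was −0.98 (0.076) without 20E replicate 2. It passed with an offset of 64 (0.0383), with the filter on dim probe sets (0.0417) and with a trend and robust variance (0.0461). It also passed with the replicate number as a block (0.0439). It moved away from the threshold with median centring (0.146), no normalization (0.17), an offset of 1 (0.123) or no variance moderation (0.16). With 1 array left out it passed in 0 of 6 fits (limma, adjusted p = 0.076 to 0.239). In all, 3 of 8 members had groups that did not overlap, where 23.6% of all probe sets did.

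**Figure D3:**
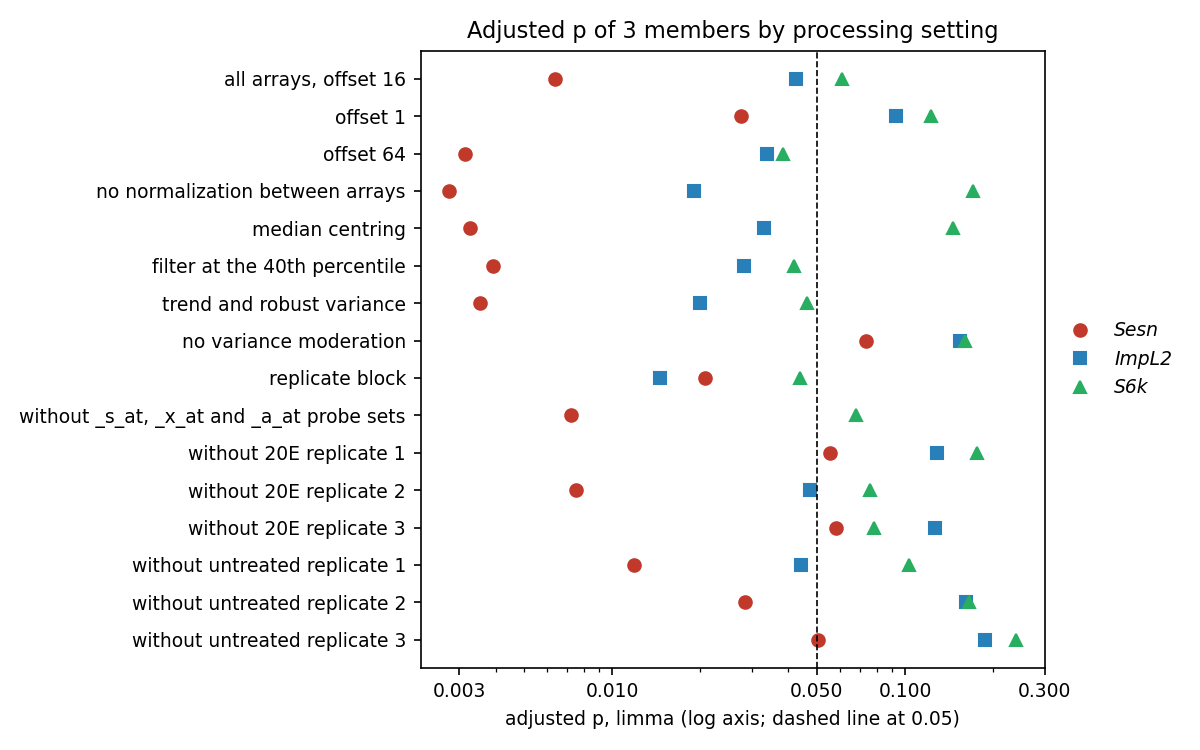
Adjusted p from limma (log axis, dashed line at 0.05) of Sesn, ImpL2 and S6k with all arrays at an offset of 16 and under each other processing setting or left-out array. Sesn stays left of the line in 11 of 15 alternatives, ImpL2 in 8 of 14 and S6k in 4 of 15.

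The 20E replicate 2 array took the lowest place of the 20E arrays in all 7 members that have 3 treated values, where it did so in 41.8% of the 18256 probe sets with 3 treated values. Without it, 7 of the 8 members had an unadjusted p under 0.05 (limma), beside 21.1% of all probe sets, and with it 3 of 8, beside 17.2%. Leaving out any other single array also gave 3 of 8. Where 20E replicate 2 held the lowest treated value, leaving it out raises the 20E mean by construction. The count of 7 is therefore no further result on the pathway. After adjustment, ImpL2 and Sesn were the 2 members called in both fits, and 5.7% of all probe sets were called without that array. Sesn has no value on it, so both fits used the same Sesn values and gave the same difference of 2.78. The members share these arrays and are not independent of each other, and the part of the array's quality in these values was not tested.

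Amino acid sensing above TOR held a call in each direction among the 10 of 11 listed genes that were measured. By limma, 3 of the 10 had an unadjusted p under 0.05. The solute carrier gene path, which encodes an amino acid transporter known to promote growth together with TOR, was at 273, 56.5 and 223 units in 20E cells, against 1332, 760 and 986 units in untreated cells. Every 20E value was far below every untreated value, by a difference of −2.57 ± 0.53 (SE; limma, adjusted p = 0.0438). RagC-D, which encodes a GTPase that brings TOR to the lysosome in the presence of amino acids, was at 380, 446 and 399 units in 20E cells, against 239, 184 and 196 units in untreated cells. Every 20E value was above every untreated value, by 0.94 ± 0.20 (SE; limma, adjusted p = 0.0433). Of these 2 calls, that of path held on leaving out 1 array only without 20E replicate 2 (−1.95, 0.0221; highest adjusted p 0.173) and that of RagC-D under none (0.0582 to 0.19). Without 20E replicate 2, RagC-D differed by 0.88 (limma, adjusted p = 0.0611). The GATOR1 gene Iml1 had a positive difference of 1.33 ± 0.46 (SE; limma, adjusted p = 0.19), with untreated replicate 2 below 0, and mnd, an amino acid transporter gene, had the largest negative difference without a call, at −0.20 ± 0.27 (SE; limma, adjusted p = 0.793; −0.02 without 20E replicate 2).

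**Figure D4:**
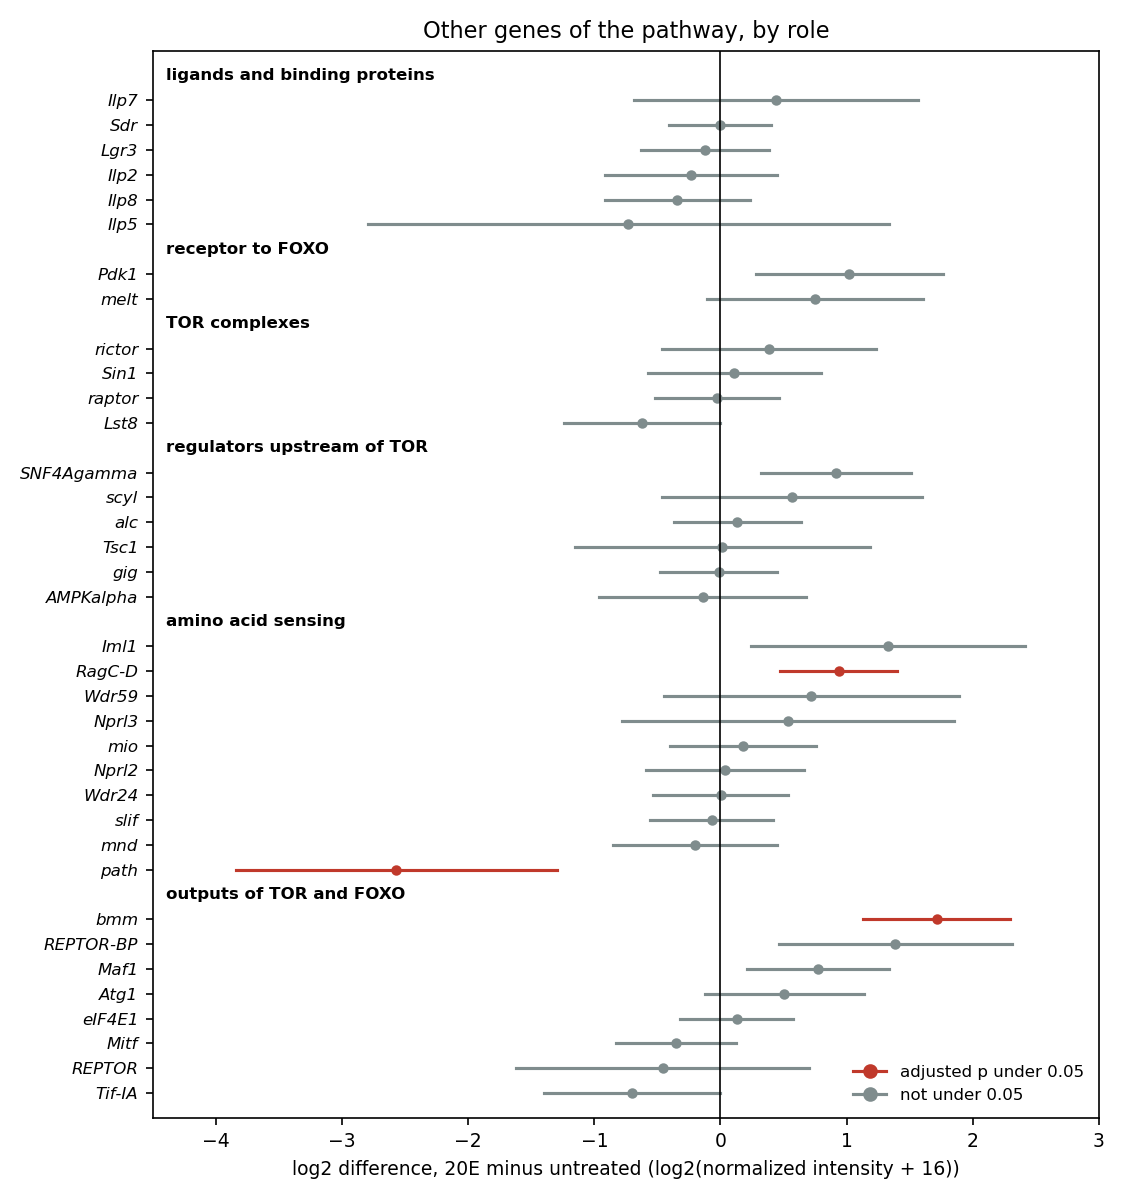
Log2 difference, 20E minus untreated, of the 36 measured pathway genes that are no members, by role (points), with pointwise 95% intervals from limma (lines), in red where the adjusted p is under 0.05. RagC-D and bmm are called higher and path lower, and the REPTOR-BP point rests on 1 treated value.

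Of the genes downstream of TOR and FOXO, 8 of 10 listed were measured and 1 passed, with 4 at an unadjusted p under 0.05 (limma). The lipase gene bmm, the fly homologue of adipose triglyceride lipase and a known FOXO target, was at 457, 319 and 513 units in 20E cells, against 135, 98.2 and 122 units in untreated cells. The groups lay far apart, with a rise of 1.71 ± 0.24 (SE; limma, adjusted p = 0.0111). Its call held without 20E replicate 2 (0.0088) or untreated replicate 1 (0.0318) and was lost, by a small margin, without any other array (0.0538 to 0.0683). Maf1, a repressor of RNA polymerase III that TOR keeps in check, had higher values on every 20E array, at 569, 576 and 821 units, against 439, 315 and 368 units in untreated cells (0.78 ± 0.24, SE; limma, adjusted p = 0.138). REPTOR-BP, which encodes a partner of a transcription factor that TOR restrains, had the largest positive difference without a call, at 1.39 ± 0.36 (SE; limma, adjusted p = 0.127), on 1 treated value that was assumed to vary like the untreated ones. Tif-IA, a ribosomal RNA transcription factor gene, differed by −0.70 ± 0.29 and the cap-binding factor gene eIF4E1 by 0.13 ± 0.19 (SE), or −0.49 and 0.07 without 20E replicate 2. Across all 36 measured genes of the pathway that are no members, out of 54 listed, 2 rose, 1 fell and 33 did not pass. Their median difference was 0.07. An unadjusted p under 0.05 (limma) was found for 10 of these 36, beside 2468 of the 11980 named genes tested. Without 20E replicate 2, 5 of these 36 differences took the opposite sign, those of Ilp7, raptor, AMPKalpha, mio and REPTOR, and none of the 5 passed in either fit. Of all named genes by 1 probe set each, 6.55% were called, 3.73% higher and 2.82% lower.

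The genes whose levels over the arrays were most like those of the called members were found by the root mean square (RMS) difference of log2 values, each centred on its untreated mean. For ImpL2, over 6 arrays and 11534 genes, they were LRR (0.13 log2 units), CG5902 (0.16) and CG7611 (0.18). For Sesn, over the 5 arrays on which it has a value and 11793 genes, they were Cat, which encodes catalase (0.08), the kinase gene Drak (0.10) and CG12643 (0.10). Cat differed by 2.73 between 20E and untreated cells, beside the 2.78 of Sesn. A close difference follows from the way these genes were picked and is no further result.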

How the data were processed

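RNA of 6 S2* cell samples was measured on Affymetrix Drosophila 2.0 arrays, and groups and replicate numbers came from the sample titles. The deposited table holds linear intensities, 1 for each probe set on an array, with 736 empty cells and some values below 0. How the authors summarised, corrected and scaled them is not given in the sources used here. Intensities were quantile normalized, floored at 0 and taken as log2(intensity + 16). The 20E arrays were tested against the untreated arrays with limma (version 3.58.1, under R 4.3.3), by lmFit and a two-sided eBayes test for each probe set, adjusted over all 18767 probe sets with a fit, at a threshold of 0.05. The fit was also run on simulated data with independent noise, no empty cells and no outlying array. That run therefore says nothing about the effect of empty cells or of 20E replicate 2. Precision is limited by the number of arrays.

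Gene names came from the platform annotation, with symbols brought up to date from RefSeq gene numbers (assembly Release 6 plus ISO1 MT; 13544 of 13647 single-gene probe sets matched). A gene outside the members was represented by the probe set with the highest mean log2 value. No sequence was used here, and coordinates are not printed because the build behind the array was not used.

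The members and lists were chosen with earlier results of these data known. The genes named were all members, every called gene of the pathway lists, the largest difference in each direction per role, hormone response genes, and the 3 genes most like each called member. Other list genes were named after their values were seen. Deviations from the group means correlated at 0.24, 0.37 and −0.02 for replicates 1, 2 and 3. For unlike numbers the correlations ran from −0.40 to 0.34. These values do not settle whether the numbers pair the samples, and the labels do not say so. The main fit therefore took no pairing.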

Additional observations from a re-analysis of the deposited data

How the results depend on the processing

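With an offset of 1, 567 probe sets, 1 member and 1 other pathway gene were called, in place of 957, 2 and 3. Without variance moderation there were 397, 0 and 0 (limma's unmoderated statistics, with 3 members and 6 other genes at an unadjusted p under 0.05). Without probe sets whose suffix marks several transcripts (_s_at, _x_at and _a_at) there were 629, 1 and 2. In that setting ImpL2, Akt and path have no probe set, and 23 other pathway genes were tested. On leaving out 1 array the calls numbered 326 to 1069 over all probe sets, 0 to 2 among members and 0 to 3 among other pathway genes, with 0 in both lists without 20E replicate 1, 20E replicate 3 or untreated replicate 3 (limma; 3 members in each such fit at an unadjusted p under 0.05), and fewer arrays were then tested. The difference of Akt ran from −0.027 without 20E replicate 1 (and −0.006 without 20E replicate 3) to 0.96 without 20E replicate 2, and no other member changed sign under any alternative run. With the replicate number as a block, 954 probe sets and 3 members were called. These were ImpL2, Sesn and S6k (limma, adjusted p = 0.0146, 0.0207 and 0.0439). The SE of ImpL2 was then 0.19, in place of 0.33. That of foxo was 0.20, in place of 0.40, and foxo did not pass (limma, adjusted p = 0.0773). The numbers share no stated origin, and 20E replicate 3 correlated best with untreated replicate 1. Each other pathway gene measured had 1 probe set, so taking the smallest p per gene changed nothing. Values near 0 have no reliable fold, and intensities carry no measure of background here.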

Other observations

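Sesn is among 421 probe sets that are empty on 20E replicate 2 and on no other array. Of these, 44 were called higher and 4 lower by limma, or 11.4% in all, beside 4.85% of those measured on all 6 arrays. Their median log2 difference was −0.06, beside −0.02 for the complete probe sets. The pathway genes rictor and SNF4Agamma have an empty cell on the same array, and REPTOR-BP, at 482 units on its only 20E value against 223, 149 and 159 units in untreated cells, is empty on 20E replicates 1 and 2. Why these cells are empty was not tested.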
